A study of Mus musculus with 8 samples.

Results

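Wild-type plasma cells sorted from mouse bone marrow are described here from 4 RNA-seq libraries, out of 8 libraries in the whole study. The members are the libraries labelled WT replicate 1 and WT replicate 2 in batch 1 and WT replicate 3 and WT replicate 4 in batch 2, and the 4 knockout libraries were not used. All 4 come from C57BL/6 mice of wild-type genotype, per the labels. The cells carried a Blimp1-GFP reporter and were sorted as positive for that reporter and for surface CD138, so Prdm1, the gene of Blimp1, and Sdc1, the gene of CD138, were part of the sort and not independent checks of it. The study set these cells beside plasma cells that lack the transcription factor Blimp1 or XBP1. The deposited names of the batch 2 WT libraries carry the text Xbp1CreER, a Cre-ER allele, while their labels give the genotype as wild type, and an allele or treatment carried by these mice is not given in the sources used here. The age and sex of the mice and whether a library pools animals are not given either. The labels number the batches without saying whether they differ in mice, sort, library preparation or sequencing.

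Plasma cells are the end stage of the B cell lineage and secrete antibody. Immunoglobulin chains are made on ribosomes at the endoplasmic reticulum (ER), enter it through a translocation channel, are folded by chaperones, joined by disulfide bonds and given sugar chains, and then leave in vesicles for the Golgi, while misfolded chains are sent back to the cytosol and degraded. The transcription factors IRF4, Blimp1 and XBP1 set up this programme, XBP1 through genes of the secretory pathway, and Blimp1 is known as a repressor of B cell genes such as Pax5, Bcl6 and Ciita.

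Total counts were between 73.4 M and 145.4 M (M, counts times 1e+06) per library, and 18.98 to 44.1 M were left outside immunoglobulin genes. Levels below are given as nTPM, meaning length-scaled counts over non-immunoglobulin genes: each count was divided by the gene's length in the deposited table and scaled so that the 26918 non-immunoglobulin genes of a library sum to 1e+06. An nTPM of 1 stands for 20.8 to 40.1 counts for a gene of 2 kb, so levels near 1 were within reach of the depth. Features under 200 bases took 12.9%, 7.34%, 2.90% and 12.2% of nTPM in WT replicates 1 to 4, and this moves every other nTPM value. WT replicate 3 stood apart in neutrophil and monocyte markers. Its summed level of 30 neutrophil and monocyte markers was 169 nTPM, against 2000 in replicate 1, 3264 in replicate 2 and 5421 in replicate 4. S100a9, a calcium-binding protein of neutrophils, had 248, 633, 6.84 and 1729 nTPM. Of 19 erythroid and megakaryocyte markers, led by the globin gene Hba-a2, the summed level was 282, 1605, 412 and 3687 nTPM, so replicates 2 and 4 were the higher ones. The 25 T and NK cell markers summed to 136 to 169 nTPM in all 4 libraries, with 6 of them under 1 nTPM in each. The 18 stroma and endothelium markers summed to 144, 461, 111 and 121 nTPM, and in replicate 2 most of this was Vcam1 at 364 nTPM. The 18 dendritic cell markers summed to 2526 to 4394 nTPM, nearly all from Ly6d and Bst2, which are also on plasma cells. Of the 18, 4 were under 1 nTPM in each library, Siglech and Zbtb46 among them. Next after Ly6d and Bst2 were Tcf4 at 116, Irf8 at 83.5 and Cox6a2 at 47.1 nTPM in mean. The 13 B progenitor markers summed to 249.1 to 362 nTPM, led by Vpreb3 and Cd93. Of the 13, 3 were under 1 nTPM in each library, among them the recombinase gene Rag2 at 0.271 to 0.690 nTPM. Its partner Rag1 had 1.10, 2.88, 8.71 and 5.48 nTPM in WT replicates 1 to 4. In bulk RNA, fewer cells of a type and less RNA per cell cannot be told apart.

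The libraries also differed in genes of the sex chromosomes, which were looked up after values had been seen. Xist, the RNA of the inactive X chromosome, had 0.570, 4.33, 126 and 82.3 nTPM. The Y-linked helicase gene Ddx3y had 37.9, 30.2, 0.0537 and 39.1 nTPM. Replicates 1 and 2 thus had Y-linked transcripts with little Xist, replicate 3 had Xist with almost no Ddx3y, and replicate 4 had both. A batch difference and a difference of this kind cannot be told apart in these libraries for genes that follow it.

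The 2 batches were compared with edgeR's quasi-likelihood test on raw counts scaled by TMM (a library scaling that assumes most genes do not change), batch 2 minus batch 1, with Benjamini-Hochberg adjustment and a call at an adjusted p below 0.05. Of 13541 genes tested, 3697 (27.3%) were called, 2115 higher (15.6%) and 1582 lower (11.7%) in batch 2, and 69.6% had no overlap between the batches. The count fell most when a batch 1 library was left out. In such a fit the spread between libraries comes from batch 2 alone, and the reason for the fall was not tested. Over the non-immunoglobulin genes tested, the median log2 fold change was 0.02 on the TMM scale and 0.33 as a ratio of nTPM, so a gene reads higher in batch 2 by nTPM than by TMM. Calls and log2 fold changes are on the TMM scale and levels are in nTPM.

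The genes that define plasma cells were high in all 4 libraries. Xbp1 (chromosome 11, 5520641 to 5525993 in GRCm38.p6) had 6777, 7652, 6902 and 6634 nTPM and a mean of 6991 ± 454 (SD, n = 4). Sdc1 (chromosome 12, 8771396 to 8793716) had 776, 809, 753 and 548 nTPM. Irf4, the factor needed at every stage of plasma cell life (chromosome 13, 30749233 to 30766981), had 391, 480.2, 969 and 573 nTPM. These 3 genes were thus ordered Xbp1 far above Sdc1 and Irf4, which overlapped each other. Prdm1 (chromosome 10, 44437174 to 44528558) was the lowest at 238, 273, 294 and 249.6 nTPM, and whether the reporter affects its count was not tested. The J chain gene Igj, whose product links IgM and IgA into multimers, took 5.48% ± 0.986 of all counts (SD, n = 4), with 6.32%, 6.27%, 5.05% and 4.30% in replicates 1 to 4. None of these 5 genes was called between batches by edgeR (adjusted p from 0.0625 for Sdc1 to 0.413 for Igj). Of 46 genes of a wider list of plasma cell regulators and surface proteins, 45 were detected and 31 were at 100 nTPM or more in every library. Among them Mzb1, an ER partner of immunoglobulin chains, had 7125 ± 791 nTPM (SD, n = 4), the BCMA receptor gene Tnfrsf17 had 809 ± 247, the survival factor Mcl1 had 557 ± 80.0, and Ell2, an elongation factor that favours secretory immunoglobulin mRNA, had 522 ± 119. Of that list's 45 tested genes, 5 were higher and 4 lower in batch 2 (20% called, against 27.3% of all genes tested). Jsrp1 was the 1 member with 0 counts in all 4 libraries, a gene singled out after its value was seen.

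Immunoglobulin genes, J chain included, took 75.7%, 75.6%, 69.7% and 64.8% of all counts in WT replicates 1 to 4, a mean of 71.5% ± 5.26 (SD, n = 4). Both batch 1 libraries were above both batch 2 libraries, and the exact 2-sided permutation p of 0.333 is the smallest that 2 against 2 libraries allow. On length-scaled counts over all genes (TPM) the share was 92.0%, 92.6%, 91.3% and 88.4%. By group the move went both ways: the heavy chain constant regions held 30.4% of counts and 14.1% of TPM, and the heavy joining segments, counted as features of their own, 0.579% and 6.82%. Of the 100 most abundant features on that scale, 97 were immunoglobulin genes, and the most abundant other gene with a usable name ranked 69. By counts, the 8 heavy chain constant regions took 30.4% ± 1.24 (SD, n = 4), the kappa constant region 15.2% ± 2.07, the kappa variable segments 11.8% ± 1.05 and the heavy variable segments 6.42% ± 0.579. The 3 lambda constant regions together took 0.712% ± 0.139, so kappa light chains were far more abundant than lambda in each library.

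Igkc, the kappa constant region (chromosome 6, 70726435 to 70726754), was the most abundant transcript, with 309477, 279592, 302238 and 255352 TPM. Ighm, the heavy chain of IgM, had 74550.3, 36612, 57306 and 64763 TPM and was lowest in replicate 2. Igha, the heavy chain of IgA, had 28597, 51538, 26995 and 27219 TPM and was highest in replicate 2. The order of IgM over IgA in replicates 1, 3 and 4 was turned in replicate 2. Ighg2b had 15492, 29126, 33665 and 33137 TPM and Ighg2c had 11569.7, 16455, 18184 and 18688 TPM, so in replicate 1 both IgG chains were the lowest of the 4. Among variable segments, Ighv1-53 had 4732, 4274, 13564 and 13950.2 TPM, with both batch 2 libraries over both batch 1 libraries, and Igkv5-39 had 6961, 4938, 6620 and 17820 TPM, with replicate 4 above the rest. None of the 10 most abundant immunoglobulin genes, to which these belong, was called between batches by edgeR (adjusted p from 0.101 for Ighv1-53 to 0.934 for Ighg2b). Variable segments are near-identical copies, so counts on a single segment are uncertain.

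With immunoglobulin genes set aside, genes were ranked among those with a usable name, without predicted genes, pseudogenes and features under 200 bases. Of the 25 most abundant features of any kind, 4 were left out of this ranking. The largest short feature took 11.5%, 5.82%, 1.52% and 8.83% of nTPM in WT replicates 1 to 4. The most abundant gene of the ranking was B2m, the light chain of MHC class I molecules, with 29919, 31098, 23302 and 22587 nTPM. Among all non-immunoglobulin features its mean ranked 2. Slpi, a secreted inhibitor of leukocyte proteases, followed with 17441, 21462, 18088 and 12223 nTPM, and Cd74, the invariant chain of MHC class II, with 15931, 15818, 14434 and 12418 nTPM. These 3 genes kept their places above the leading ER genes in every library. Next in order were the mitochondrially encoded COX1 and CYTB and the ER genes Hsp90b1, Txndc5 and Mzb1, with Xbp1 in ninth place, ahead of the surface protein genes Ly6c2 and Ly6a. The genes from place 12 to place 25 were ND1, H2-K1, Eef1a1, Prg2, Rpl41, Hspa5, Rplp1, Serp1, Ly6e, Cd52, Ssr4, ND2, Sec11c and Ctss, between 5111 and 3247 nTPM in mean, and their ranges overlapped so widely that the order within this stretch is not fixed. Of the 25 genes, 14 were among the top 25 of every library, and 77 of the top 100 were in the top 100 of every library. Of the top 100, 30 belonged to the secretory pathway lists, which hold 1.24% of the genes with a usable name, 16 encoded ribosomal proteins and 11 were mitochondrially encoded. Between batches, 5 of the 25 were called, all lower in batch 2 (against 27.3% of all genes tested in either direction): Ly6a, Rpl41, Rplp1, Cd52 and Ssr4. Rpl41, Rplp1 and Cd52 kept the call with any library left out, while Ly6a had adjusted p = 0.0732, 0.112 and 0.0838 without replicates 1, 2 and 4, and Ssr4 had 0.0751, 0.101 and 0.0730. Members of the Ly6, ribosomal protein and MHC class I families have near-identical copies, so their single values are uncertain.

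**Figure D1:**
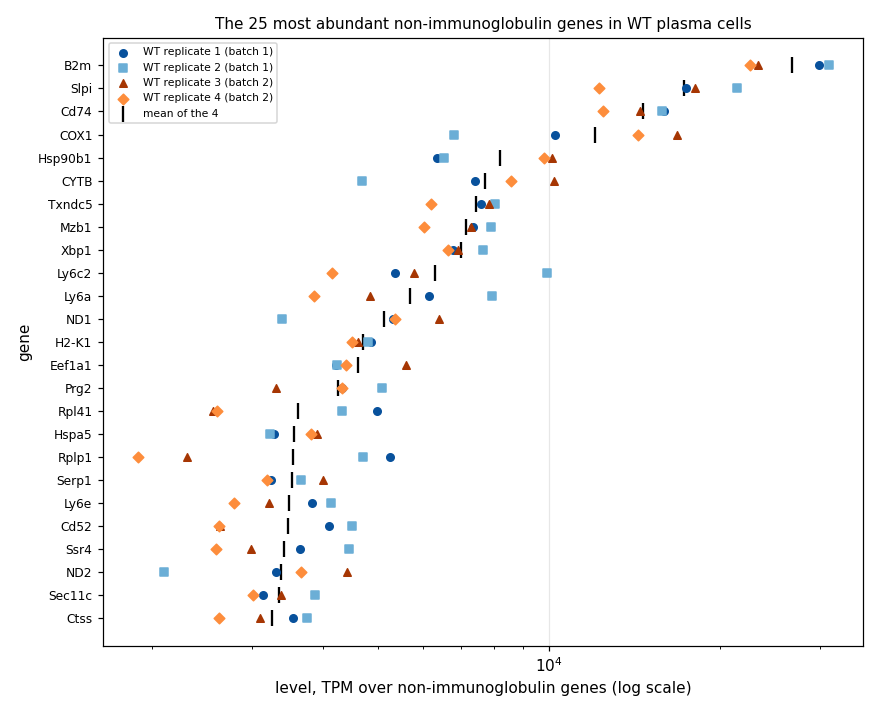
Level of the 25 most abundant non-immunoglobulin genes (x axis, nTPM, log scale; y axis, gene in order of the mean) in each of the 4 WT libraries, with a tick at the mean. B2m lies between 22587 and 31098 nTPM and H2-K1 between 4498 and 4856, while COX1, CYTB and ND2 are lowest in WT replicate 2 and Rplp1 and Rpl41 are lower in both batch 2 libraries.

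Some genes in this ranking had a narrow range. H2-K1, a classical MHC class I heavy chain, had 4856, 4804, 4604 and 4498 nTPM, a highest library 1.08 times the lowest. Hspa5, the chaperone BiP, had 3281, 3226, 3899 and 3799 nTPM. Hsp90b1, the chaperone GRP94, had 6347, 6514, 10098 and 9803 nTPM, so that the batches did not overlap, but its log2 fold change by edgeR was 0.31 ± 0.29 (SE, adjusted p = 0.461). Prg2, known as a granule protein of eosinophils, had 4311, 5072, 3305 and 4322 nTPM. In each library this was far above other eosinophil genes, looked up after values had been seen. Epx, the eosinophil peroxidase, had 0.171, 2.11, 0.444 and 9.12 nTPM, and Prg3 had 9.99, 18.4, 18.1 and 27.8 nTPM. Ear1 had 1.68, 7.96, 0.769 and 10.7 nTPM, and Ccr3, highest in replicate 2, had 5.74, 50.6, 0.487 and 0.668 nTPM. Ranking by the authors' deposited log2 FPKM gave 24 of the same 25 genes, and ranking by raw counts, without length, gave 15.

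By function, 26 lists of 1184 genes held 40.6% ± 2.42 of nTPM (SD, n = 4). By the mean, the largest was ER chaperones and oxidative folding at 4.98% ± 0.275, followed by the mitochondrially encoded genes at 4.66% ± 2.21, the ribosomal proteins at 4.46% ± 0.909 and MHC class I at 3.73% ± 0.454. Surface receptors and adhesion proteins held 3.04% ± 0.692, ER translocation 2.08% ± 0.227, nuclear genes of oxidative phosphorylation 1.96% ± 0.416, MHC class II 1.80% ± 0.241, translation factors 1.76% ± 0.137 and ER-Golgi transport 1.75% ± 0.126. In no single library was the chaperone list the largest: the ribosomal proteins were above it in replicates 1 and 2 and the mitochondrially encoded genes in replicates 3 and 4. The chaperone list spread far less over the libraries than the mitochondrial and ribosomal lists next to it in rank. The smallest share was that of 33 proliferation genes at 0.0741% ± 0.0185.

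**Figure D2:**
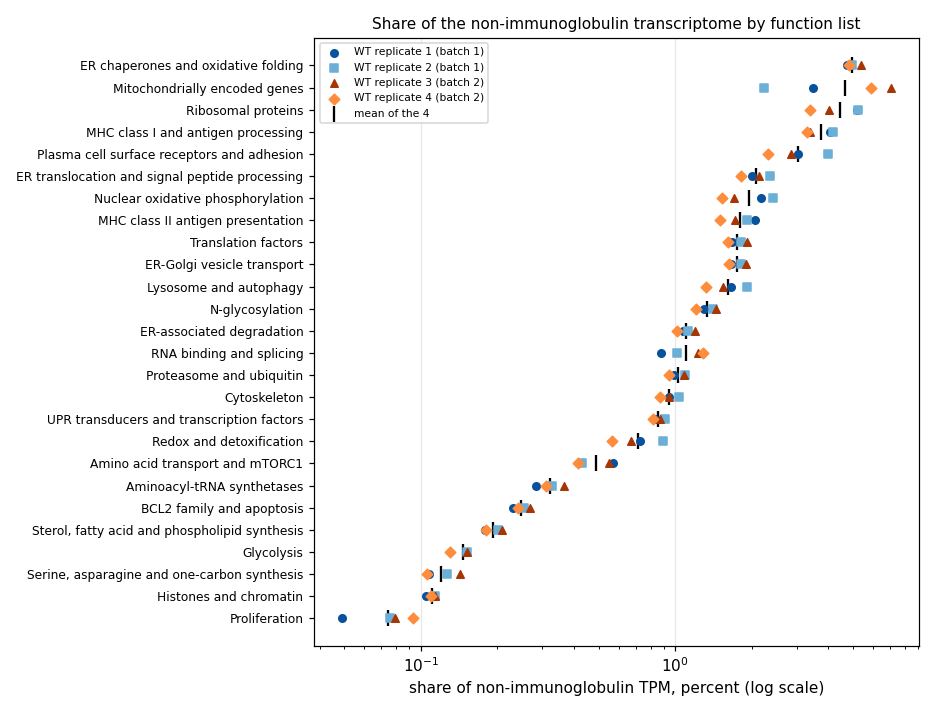
Share of nTPM held by each of 26 function lists (x axis, percent, log scale) in each of the 4 WT libraries, with a tick at the mean. The ER lists lie close together in all libraries (ER chaperones 4.74% to 5.36%), while the mitochondrially encoded genes run from 2.22% in WT replicate 2 to 7.06% in WT replicate 3.

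The 5 lists of the secretory pathway held 10.8%, 11.7%, 12.04% and 10.5% of nTPM in WT replicates 1 to 4, a mean of 11.2% ± 0.725 (SD, n = 4). The batches overlapped, with an exact 2-sided permutation p of 1. The share was 13.01% with features under 200 bases and mitochondrially encoded genes left out and 13.5% of raw counts. Of 251 secretory genes at 10 nTPM or more, 187 (74.5%) had a highest library under 1.5 times the lowest, against 47.7% of all 8267 such genes. On the TMM scale the figures were 68.5% and 55.7%. Between batches, 13 of 266 tested members were higher and 65 lower (29.3% called, against 27.3% of all genes), with a median log2 fold change of -0.21 on the TMM scale and 0.10 as a ratio of nTPM, so the sign of the median depends on the scale.

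Among the 51 ER chaperone and folding genes, 33 were at 100 nTPM or more in every library. The order by mean nTPM was Hsp90b1, then Txndc5, a protein disulfide isomerase at 7417 ± 836 (SD, n = 4), then Mzb1, Hspa5, Pdia4 at 2287 ± 337 and Calr, the lectin chaperone calreticulin, at 2100.2 ± 131. Hsp90b1, Txndc5 and Mzb1 overlapped over the libraries, and Hspa5 lay below all 3 in every library. Of 49 tested, 1 was higher and 11 lower in batch 2 (24.5%), and none of these 6 leading genes was called by edgeR (adjusted p from 0.119 for Mzb1 to 0.885 for Pdia4). Dnajb11, a cochaperone of BiP, had 486, 493, 498 and 466 nTPM, and was among the 10 genes with the smallest range of those at 100 nTPM or more.

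The ER stress response element, ERSE, is a known binding site for ATF6 and XBP1 with the factor NF-Y, and was looked for in the promoters of the list. Of the 6 leading chaperone genes, Hsp90b1, Hspa5 and Calr had a match, Txndc5 and Pdia4 had a window without one, and Mzb1 had no window. The element was searched as CCAAT and CCACG with 9 bases between them, on both strands, in the 250 bases before the RefSeq gene start (GRCm38.p6), with overlaps allowed; its letters CCACG also begin the reverse complement of the UPRE motif TGACGTGG, so matches of both can overlap. It was found in 8 of 42 ER chaperone genes with a window (19.0%) and in 30 of 18457 genes of any kind (0.163%). Among genes of the top 100 it was in 6 of 66 with a window (9.09%), and among genes with a mean under 1 nTPM in 0.146%. It was found in 2 of 25 genes of ER-associated degradation (Derl3 and Syvn1), in 1 of 43 of N-glycosylation (Alg12), and in none of 26 of ER translocation or 86 of ER-Golgi transport. UPRE was in 4.505% of secretory genes and 0.710% of all, and the cyclic AMP element TGACGTCA, searched for comparison, in 0.901% and 2.22%. The windows of the 4 most abundant genes with an ERSE are shown because they show where the element lies in these abundant members, and are given 5′ to 3′ on the gene's strand, with each ERSE match in capitals, read on either strand.
Hsp90b1, chr10:86705445-86705694, minus strand: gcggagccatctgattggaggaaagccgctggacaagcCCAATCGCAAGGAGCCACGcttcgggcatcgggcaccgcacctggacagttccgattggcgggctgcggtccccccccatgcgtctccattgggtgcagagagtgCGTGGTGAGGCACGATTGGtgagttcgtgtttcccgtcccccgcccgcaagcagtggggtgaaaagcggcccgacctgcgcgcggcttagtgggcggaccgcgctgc
Hspa5, chr2:34771840-34772089, plus strand: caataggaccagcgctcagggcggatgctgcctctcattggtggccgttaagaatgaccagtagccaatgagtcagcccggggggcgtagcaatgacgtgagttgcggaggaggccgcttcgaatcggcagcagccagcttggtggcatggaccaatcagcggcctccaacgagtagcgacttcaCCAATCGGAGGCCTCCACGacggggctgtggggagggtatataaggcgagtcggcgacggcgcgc
Calr, chr8:84846932-84847181, minus strand: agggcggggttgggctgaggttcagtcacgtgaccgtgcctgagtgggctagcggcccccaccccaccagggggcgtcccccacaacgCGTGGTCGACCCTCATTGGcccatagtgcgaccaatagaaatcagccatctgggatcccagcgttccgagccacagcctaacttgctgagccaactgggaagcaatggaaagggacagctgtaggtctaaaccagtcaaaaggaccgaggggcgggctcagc
Creld2, chr15:88819396-88819645, plus strand: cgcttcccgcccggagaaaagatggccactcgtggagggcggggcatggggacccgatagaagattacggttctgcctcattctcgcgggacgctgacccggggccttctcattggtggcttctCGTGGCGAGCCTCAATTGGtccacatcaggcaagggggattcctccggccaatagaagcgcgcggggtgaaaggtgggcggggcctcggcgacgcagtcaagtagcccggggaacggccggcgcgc
Hsp90b1 holds 2 matches in opposite orientations and the others 1 each, which begins 65 bases before the start in Hspa5, 162 in Calr and 126 in Creld2. Creld2, a folding factor of the ER named here for its motif, had 1712 ± 172 nTPM (SD, n = 4), and Derl3, a channel component of ER-associated degradation, had 1471 ± 112. A match describes letters and is not evidence of binding. The letters of ERSE were known before this search. Whether promoters of these same genes had served to define them was not checked, so the shares are not an independent test.

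The translocation list, with 35 genes, was led by Serp1, a stabiliser of the Sec61 channel, at 3236, 3656, 4000.1 and 3184 nTPM. Next by mean was Ssr4, a subunit of the translocon-associated complex, at 3643, 4446, 2988 and 2588 nTPM. Sec11c, a catalytic subunit of the signal peptidase, followed at 3128, 3862, 3367 and 3013 nTPM. The ranges of Serp1, Ssr4 and Sec11c overlapped. Sec61a1, the pore itself, was lower at 936 ± 77.4 nTPM (SD, n = 4). Of 34 tested, 1 was higher and 10 lower in batch 2 (32.4%). Spcs1, a small subunit of the signal peptidase, was lower in batch 2 by 0.97 ± 0.12 (log2, SE, edgeR adjusted p = 0.00984), and kept that call with any library left out.

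N-glycosylation genes, which build and attach sugar chains, were led by Krtcap2 at 1458 ± 237 nTPM (SD, n = 4), Ddost at 991 ± 129, Rpn2 at 778 ± 96.0 and Rpn1 at 644 ± 82.2, all subunits of the oligosaccharyltransferase, with the sialyltransferase St6gal1 at 1027 ± 190. Of 52 tested, 2 were higher and 14 lower in batch 2 (30.8%). Krtcap2 and Ddost were called lower, but Krtcap2 lost its call in edgeR without replicate 1, 2 or 4 (adjusted p = 0.109, 0.0722 and 0.0720) and Ddost with any 1 library left out (adjusted p from 0.0683 to 0.149). Genes of ER-associated degradation, which return misfolded chains to the cytosol, were led by Herpud1 at 1944 ± 248 nTPM, Edem2 at 1609 ± 288, Derl3, Edem1 at 1198 ± 181 and Sel1l at 978 ± 172. Of 33 tested, none was higher and 6 were lower (18.2%). Of 31 of its genes at 10 nTPM or more, 25 (80.6%) had a highest library under 1.5 times the lowest on either scale.

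Of the 101 ER-Golgi transport genes, 50 were at 100 nTPM or more in every library. They were led by Nucb1, a calcium-binding protein of the Golgi, at 1262 ± 133 nTPM (SD, n = 4), the coatomer subunit Cope at 882 ± 223, the small GTPase Arf4 at 791 ± 65.8, the cargo receptor Surf4 at 605 ± 37.1 and Arf1 at 592 ± 37.8. Of 98 tested, 9 were higher and 24 lower in batch 2 (33.7%). Surf4 had 619.8, 614, 636 and 552 nTPM and was not called (adjusted p = 0.110), while Cope was called lower (log2 fold change -0.93 ± 0.13, adjusted p = 0.0127), a call lost without replicate 1 (adjusted p = 0.0571).

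Sensors and factors of the unfolded protein response (UPR) were much less abundant than Xbp1. Atf4, the factor of the PERK branch, had 340.3 ± 31.5 nTPM (SD, n = 4), Atf6b 203 ± 12.9, Atf6 177 ± 46.7 and Ern1, the IRE1 enzyme that splices Xbp1 mRNA, 137 ± 54.2. Ern1 had 105, 88.8, 211 and 145 nTPM, with both batch 2 libraries above batch 1, but was not called (log2 fold change 0.54 ± 0.21, adjusted p = 0.115). Of 18 tested, none was higher and 2 were lower (11.1%).

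Ribosomal proteins and the nuclear genes of oxidative phosphorylation held a smaller share of nTPM in both batch 2 libraries than in both batch 1 libraries. The ribosomal share was 5.17%, 5.25%, 4.01% and 3.39% in WT replicates 1 to 4, with no overlap between batches (exact 2-sided permutation p = 0.333, the smallest possible). Of 82 tested ribosomal genes, 16 were higher and 35 lower in batch 2 (62.2% called), with a median log2 fold change of -0.24 on the TMM scale and 0.08 as a ratio of nTPM. Abundant members were among those called lower. Rplp1 had 5251, 4689.8, 2302 and 1884 nTPM, and was lower by 1.58 ± 0.18 (edgeR adjusted p = 0.00759), and Rpl32 was lower by 1.41 ± 0.12 (adjusted p = 0.00568), both with any library left out. Nuclear genes of oxidative phosphorylation held 2.18%, 2.42%, 1.70% and 1.52%, and of 92 tested, 2 were higher and 62 lower (69.6%), with a median of -0.63 by TMM and -0.31 by nTPM. Ndufa1, a subunit of complex I, had 998, 1216, 591 and 508 nTPM and was lower by 1.33 ± 0.10 (adjusted p = 0.00479), and Atp5e, a subunit of ATP synthase, was lower by 1.08 ± 0.09 (adjusted p = 0.00575). The median gene length was 693.5 bases in the tested ribosomal genes and 746.5 in the oxidative phosphorylation genes, against 2716 bases over all non-immunoglobulin genes tested, and length itself moved with the batch difference, as described below for all genes.

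Antigen presentation genes were abundant. The 18 MHC class I genes held 4.05%, 4.19%, 3.40% and 3.29% of nTPM, of which B2m was the largest part. Of 18 tested, 1 was higher and 1 lower in batch 2 (11.1%). H2-D1, a classical heavy chain, had 2117, 2306, 2081 and 2081 nTPM, and Tapbp, the tapasin chaperone of class I loading, had 446, 484, 499 and 452 nTPM. MHC class II genes held 2.05%, 1.92%, 1.72% and 1.501%. Cd74 made up most of this, and the class II chains themselves were lower: H2-Ab1 had 1887, 1479, 1146 and 1053 nTPM and H2-Aa 1507, 1004, 856 and 791 nTPM. Of 11 tested class II genes, none was higher and 4 were lower (36.4%), and H2-Ab1 lost its call without replicates 1, 3 and 4 (adjusted p = 0.0969, 0.0735 and 0.0894). Ciita, the factor that drives class II genes in B cells, was at 5.34, 2.28, 1.87 and 2.80 nTPM.

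Other functions held smaller shares. Of 54 tested lysosome and autophagy genes, 3 were higher and 24 lower in batch 2 (50% called). Of 60 proteasome and ubiquitin genes, 4 were higher and 28 lower (53.3%). Of 40 cytoskeleton genes, 5 were higher and 21 lower (65%), and of 27 redox genes, 1 was higher and 14 lower (55.6%). The share was 27.3% over all genes tested. Median gene lengths were 1988 bases for lysosome, 1286.5 for proteasome, 1603.5 for cytoskeleton and 1445 for redox genes. Over all non-immunoglobulin genes tested the median was 2716 bases, and the part of length in these calls was not tested. The called share was 37.7% for translation factors, 32.3% for amino acid transport and 27.8% for glycolysis. It was 18.8% for sterol, fatty acid and phospholipid synthesis and 18.2% for proliferation. Lysosome and autophagy genes held 1.61% ± 0.250 (SD, n = 4), led by the protease gene Ctss at 3247 ± 499 nTPM, and proteasome and ubiquitin genes 1.03% ± 0.0693, led by Psmb8, a subunit of the immunoproteasome, at 825 ± 117. Translation factors were led by Eef1a1 at 4602 ± 660.2 nTPM. Among amino acid transport genes, Slc3a2, the heavy chain shared by several amino acid carriers, had 3688, 2144, 3036 and 2191 nTPM, while its partner Slc7a5 had 265, 257, 349 and 197. Glycolysis held 0.146% ± 0.0105 and sterol, fatty acid and phospholipid synthesis 0.192% ± 0.0150. The proliferation list held 0.0488%, 0.0757%, 0.0788% and 0.0931% and no member reached 100 nTPM in every library. Its leading genes were the replication helicase gene Mcm6 at 87 ± 11 nTPM and Pcna at 82 ± 13.

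Of 87 genes in 3 lists of B cell factors, receptors and surface proteins, 3 were under 1 nTPM in all 4 libraries, which is the threshold for silence used here, against 50.9% of all 26918 non-immunoglobulin genes. Among them were the transcription factors Lef1, at 0.243 to 0.985 nTPM, and Bcl11a, at 0.328 to 0.873 nTPM. By mean level, 3 genes were under 1 nTPM, 21 between 1 and 10, 36 between 10 and 100, and 27 at 100 or more. So the B cell genes formed a gradient in these libraries and few were silent by this threshold. These are bulk levels, and the part of other cells in the low ones was not tested. The count of silent genes was 1 at a threshold of 0.5, 5 at a threshold of 2, and 17 with a threshold of 1 TMM-scaled CPM per kilobase, a scale that keeps immunoglobulin counts in the library size.

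The 25 B cell transcription factors ranged from under 1 nTPM to over 1000, with 15 of them at a mean of 10 nTPM or more. Several factors of the B cell stage lay at the low end. Pax5, the factor that maintains B cell identity, had 2.06, 2.15, 6.10 and 7.18 nTPM (27, 27, 148 and 111 counts). Bcl6, the germinal centre repressor, had 0.981, 1.2, 0.880 and 1.74 nTPM. Bach2, a repressor of plasma cell differentiation, had 1.55, 2.13, 5.88 and 7.34 nTPM and was higher in batch 2 by 1.54 ± 0.22 (log2, SE, edgeR adjusted p = 0.0124, and 0.0515 without replicate 1). Ebf1, a factor of early B cells, had 6.88, 10.7, 18.1 and 14.1 nTPM, and Spib 8.43, 11.9, 13.8 and 16.5. The batches of Pax5, Bach2, Ebf1 and Spib did not overlap by nTPM, as 69.6% of all genes tested did not on the TMM scale, those of Bcl6 did, and of these 5 edgeR called Bach2. In between lay Irf8 at 83.5 ± 10.1 nTPM (SD, n = 4), Foxo1 at 67.9 ± 15.5, Fli1 at 66.8 ± 22.03, Relb at 63.3 ± 7.12, Ets1 at 53.1 ± 13.9 and Pou2f2 at 43.1 ± 16.6. Factors that B cells and plasma cells share were far higher. Pou2af1, the coactivator of octamer factors at immunoglobulin promoters, had 1615, 1595, 1904 and 1700.3 nTPM, and Ikzf3 and Ikzf1, zinc finger factors of lymphocytes, had 241 ± 26.7 and 164 ± 32.7 (SD, n = 4). Spi1, the factor PU.1 of B and myeloid cells, had 81.9, 88.0, 57.5 and 60.1 nTPM and was lower in batch 2 by 0.84 ± 0.10 (adjusted p = 0.00889), also with any library left out. The neutrophil and monocyte markers summed to their lowest level in replicate 3 and their highest in replicate 4, both of batch 2, and their part in the level of Spi1 was not tested.

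The B cell receptor list was split. The signalling chains Cd79a (1319 ± 162 nTPM, SD, n = 4) and Cd79b (1372 ± 116) were among the more abundant transcripts, and Cd79b had a highest library 1.19 times the lowest. The adaptor Blnk had 383 ± 42.9 nTPM and Ms4a1, the gene of CD20, 214, 191, 300.3 and 185. Cd22, an inhibitory coreceptor, was at 9.33 ± 3.13 nTPM, and the lowest of the list were Fcer2a, the gene of CD23, at 4.22 ± 1.08 and Cr2, the complement receptor CD21, at 1.09 ± 0.406. Within the receptor and its coreceptors, levels thus ran from the range of the ER genes down to the threshold for silence. Among surface and homing genes, Cxcr5, the receptor that guides B cells to follicles, had 0.810, 1.03, 1.52 and 2.87 nTPM, Ccr7, the receptor for lymphoid tissue chemokines, 3.31, 2.24, 2.65 and 1.23, and Tnfrsf13b, the TACI receptor kept by plasma cells, 530.3, 543, 612 and 435. Of 86 tested genes in the 3 lists, 8 were higher and 13 lower in batch 2 (24.4%), with a median log2 fold change of -0.08 on the TMM scale and 0.25 as a ratio of nTPM.

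**Figure D3:**
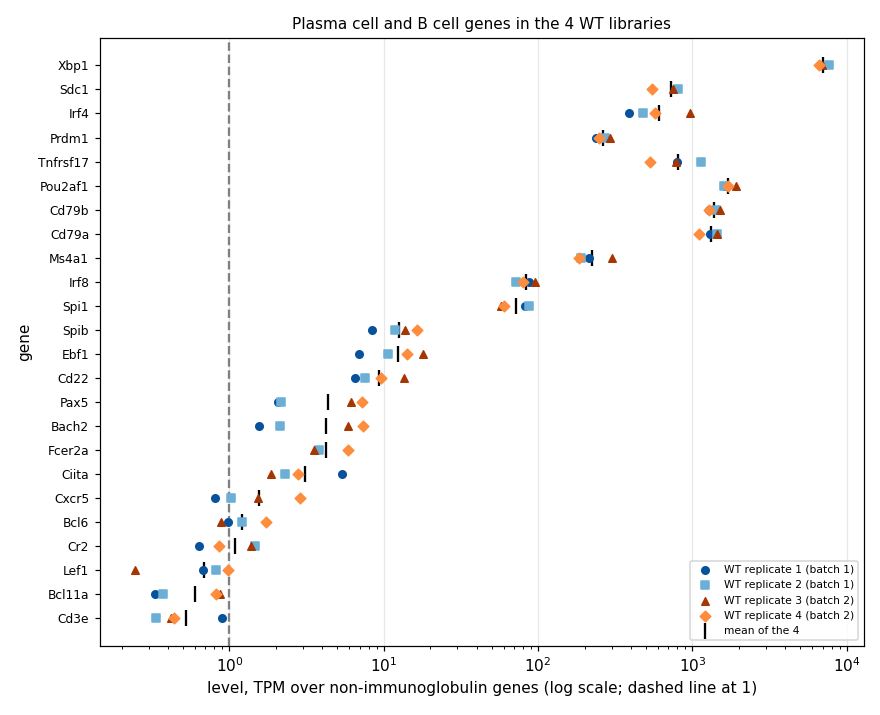
Level of 4 plasma cell markers, Tnfrsf17 and 18 B cell genes, with the T cell gene Cd3e as a low reference (x axis, nTPM, log scale, dashed line at 1; y axis, gene; genes picked for the plot after values were seen), in each of the 4 WT libraries, with a tick at the mean. The levels run from 7652 nTPM for Xbp1 in WT replicate 2 to 0.243 for Lef1 in WT replicate 3.

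Gene length moved with the batch difference. Median log2 fold changes (batch 2 minus batch 1, TMM scale) were -0.04 for 244 genes longer than 200 and up to 500 bases, -0.46 for 1113 genes longer than 500 and up to 1000 bases, -0.28 for 3075 genes up to 2000 bases, -0.01 for 5182 genes up to 4000 bases, 0.33 for 3090 genes up to 8000 bases and 0.83 for 538 genes over 8000 bases. Of the longest group, 323 genes (60.0%) were higher and 7 (1.30%) lower in batch 2, against 15.6% and 11.7% of all genes tested. Of the genes longer than 500 and up to 1000 bases, 131 (11.8%) were higher and 360 (32.3%) lower. Of the genes longer than 200 and up to 500 bases, which include Rpl41 and Rplp1, 21.7% were higher and 27.5% lower, and the 44 features of at most 200 bases had a median of 1.76, so the order by length held only above 500 bases. The part of length in any single gene's call was not tested. Mki67, a proliferation gene of 10075 bases in this table, was higher in batch 2 by 1.77 ± 0.22 (edgeR adjusted p = 0.00961), while Pcna and Mcm6 had -0.09 and -0.05 (adjusted p = 0.695 for both). By nTPM, Pcna had 62.6, 89.4, 83.5 and 92.1 and Mcm6 had 71.4, 87.0, 95.2 and 93.9, so neither gives a firm direction.

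**Figure D4:**
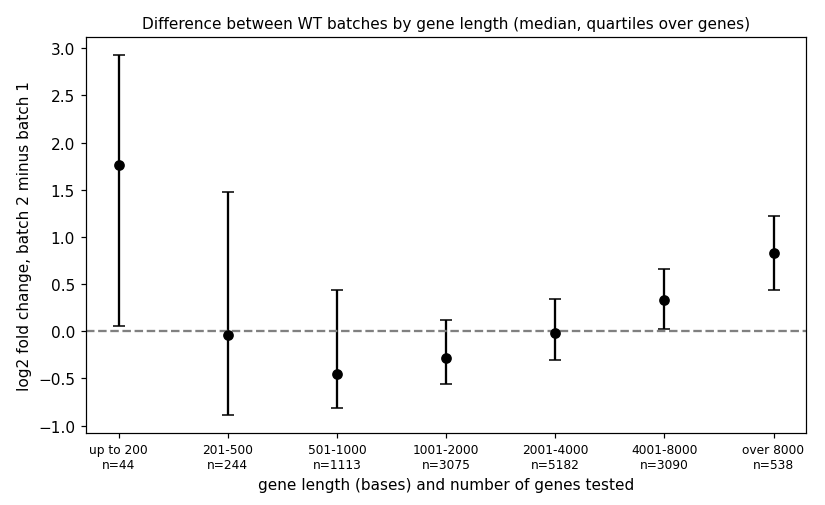
Median log2 fold change between the WT batches (y axis, batch 2 minus batch 1, TMM scale) in 7 groups of genes by length in bases (x axis, with the number of genes), with bars from the lower to the upper quartile over genes. Above 500 bases the median rises from -0.46 to 0.83.

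The largest differences between batches included a stretch of the mitochondrial genome. The 13 protein genes that it encodes, subunits of the respiratory chain and ATP synthase, held 3.47%, 2.22%, 7.06% and 5.90% of nTPM. COX2 had 251, 224, 4714 and 3895 nTPM, a log2 fold change of 3.85 ± 0.18 (SE, edgeR adjusted p = 0.00333). ATP8 had 65.4, 82.5, 3693 and 3138 nTPM (5.21 ± 0.12, adjusted p = 0.00119), and ND4L had 33.2, 30.1, 1044 and 989 (4.68 ± 0.13, adjusted p = 0.00190). COX3 (2.87 ± 0.15), ATP6 (2.91 ± 0.25) and ND3 (2.23 ± 0.26, adjusted p = 0.00854) were also called. These 6 called genes are neighbours, from position 7013 at the start of COX2 to 10173 at the end of ND4L in GRCm38.p6, and the calls of COX2, ATP8, ATP6, COX3 and ND4L held with any library left out, while ND3, outside the rule for named genes, was not refitted in that way. On either side the difference was smaller and not called: COX1 had 10246, 6803, 16781 and 14351 nTPM (0.53 ± 0.36, adjusted p = 0.321) and CYTB had 7399.5, 4681, 10204 and 8578 (0.30 ± 0.34, adjusted p = 0.554), while ND4, next to the stretch, was at 1.13 ± 0.30 (adjusted p = 0.0512). ATP8 and ATP6, and ND4L and ND4, overlap each other, so reads in the overlap cannot be told apart. Whether the stretch has near-identical copies elsewhere in the genome was not examined. The part of reads that match several places in these differences was not tested, so the counts may not measure transcript level alone.

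**Figure D5:**
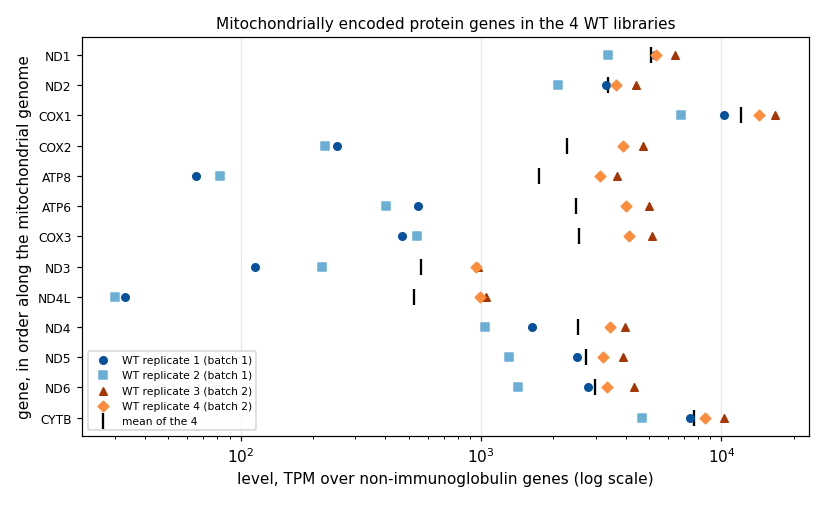
Level of the 13 mitochondrially encoded protein genes (x axis, nTPM, log scale) in the 4 WT libraries, with genes on the y axis in their order along the mitochondrial genome and a tick at the mean. From COX2 to ND4L the batch 1 libraries lie at 30.1 to 547 nTPM and the batch 2 libraries at 952 to 5127, while COX1, ND1 and CYTB lie within 2.47 times over the 4 libraries.

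Outside the mitochondrion, the highest called log2 fold changes by the rule for named genes were those of Xist (5.14 ± 0.97, edgeR adjusted p = 0.0232), Malat1, a nuclear noncoding RNA, with 39.2, 27.2, 329 and 1057 nTPM (4.08 ± 0.70, adjusted p = 0.0184), and Mtcp1, with 5.56, 6.80, 34.2 and 151 nTPM (3.63 ± 0.80, adjusted p = 0.0322). Each was highest in a batch 2 library. Xist held its call with any library left out. Malat1 and Mtcp1 lost theirs without replicate 1 (adjusted p = 0.0557 and 0.114) and without replicate 2 (adjusted p = 0.0625 and 0.0951). Ubb, a polyubiquitin gene, had 351, 315, 1385 and 1123 nTPM (1.58 ± 0.16, adjusted p = 0.00627). These genes were low in both batch 1 libraries and high in both batch 2 libraries.

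The lowest called log2 fold changes differed in their pattern over the batch 1 libraries. Ctsk, the protease cathepsin K, was even within batches, with 155, 144, 8.47 and 6.70 nTPM (-4.63 ± 0.15, edgeR adjusted p = 0.00292), and kept its call with any library left out. Genes known from macrophages were highest in replicate 2: Cd5l had 26.1, 180.0, 1.35 and 3.18 nTPM (-5.80 ± 1.10, adjusted p = 0.0233), Fcna 52.7, 386, 1.93 and 8.96 (-5.62 ± 1.27, adjusted p = 0.0342), Cd163 6.52, 39.8, 0.233 and 1.03 (-5.52 ± 1.17, adjusted p = 0.0297) and Axl 44.1, 160, 5.64 and 18.3 (-3.34 ± 0.85, adjusted p = 0.0442). The immediate-early and early response genes Egr1 and Dusp1 and the factor Klf2 were highest in replicate 1: Egr1 had 546, 113, 8.17 and 23 nTPM (-4.75 ± 1.05, adjusted p = 0.0323), Dusp1 468, 99.6, 9.95 and 34.6 (-4.02 ± 1.05, adjusted p = 0.0483) and Klf2 367, 95.4, 23 and 26.3 (-3.59 ± 0.73, adjusted p = 0.0273). Each of these 7 genes lost its call in at least 1 fit with a library left out, with adjusted p up to 0.0729 for Egr1, 0.110 for Dusp1, 0.0747 for Klf2, 0.0729 for Fcna, 0.0676 for Cd163, 0.0648 for Cd5l and 0.0973 for Axl. Fos and Jun, looked up after values had been seen, had 3990, 1192, 192 and 558 nTPM and 1801, 406, 83.7 and 260, and neither was called (adjusted p = 0.0547 and 0.0779).

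What stayed even over both batches was a large part of the transcriptome. Of 8267 genes with a mean of at least 10 nTPM, 3944 (47.7%) had a highest library under 1.5 times the lowest, and 280 had a ratio above 5. Of 1558 genes at 100 nTPM or more, 953 (61.2%) were inside 1.5 times, and of 107 genes at 1000 nTPM or more, 41 (38.3%). Across genes, log2 levels had a Pearson correlation of 0.982 between replicates 1 and 2, 0.952 between replicates 3 and 4, and 0.870 to 0.887 between libraries of different batches, values across genes that share depth and length and carry no test. The median gene differed 1.13-fold between replicates 1 and 2, 1.14-fold between 3 and 4, and 1.30-fold to 1.38-fold across batches. For 6929 of the 13541 genes tested, the 95% interval of the log2 fold change lay within 1 in either direction, so a larger difference lay outside that interval.

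The genes with the smallest range among those of at least 100 nTPM were Mbd3, a subunit of the NuRD complex, with 151, 154, 149 and 153 nTPM, Nmt1, an enzyme that attaches myristate, with 176, 180.3, 183 and 178, and Cyb5r3, Cnp, Tm2d3, the splicing factor Puf60, the phosphatase subunit Ppp4c, Dnajb11, St13 and Ppp2r4. Their highest library was at most 1.07 times the lowest. On the TMM scale the same 10 genes had log2 fold changes from -0.35 to -0.25 and ratios of 1.29 to 1.40, so their evenness belongs to the nTPM scale. On the TMM scale the smallest ranges were those of Nono, Adipor2 and Trpc4ap, picked after values were seen, at 1.03 to 1.04, with nTPM ratios of 1.32 to 1.37. Of ribosomal proteins, 25.9% by nTPM and 22.2% by TMM were inside 1.5 times, beside the 47.7% and 55.7% of all genes, and none of the 13 mitochondrially encoded genes was inside on either scale. These shares are counts over lists of different lengths and levels and were not tested.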

How the data were processed

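Total RNA of sorted plasma cells was extracted with a column kit and made into libraries with the TruSeq RNA kit, per the labels. The authors deposited raw counts per Entrez gene with a gene length in bases, and a log2 FPKM value for 13945 genes per library, per the file headers; Subread, featureCounts and limma are named with the builds GRCm38 and mm10, per the submitters' processing notes. Their versions, the strand setting, read length, the filter and the offset of the log2 FPKM are not given in the sources used here. The series calls the replicates biological.

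From the counts, TPM over all genes and nTPM over non-immunoglobulin genes (261 immunoglobulin genes set aside, J chain included) were computed. Of 27179 genes, 13860 had a deposited symbol, 11720 a RefSeq symbol only (GRCm38.p6) and 1599 none; those without a symbol took 0.0570% to 0.206% of counts. The 4 columns of knockout libraries were not used. Counts were tested with edgeR 4.0.16 in R 4.3.3 (glmQLFit, glmQLFTest, TMM, filterByExpr, 2 against 2 libraries), with DESeq2 1.42.0 as an alternative. Counts were also simulated for 13304 genes with the batch comparison's design. Of these, 65 of 100 genes changed by 2 log2 units and 87 of 100 changed by 3 were recovered, with 8 false calls. Each simulated gene's spread followed the trend over level, and no shift with gene length was built in. The 8 false calls are thus no error rate for the calls on the real counts. The standard error (SE) of a log2 fold change was computed as its absolute value over the square root of edgeR's F statistic. The 95% intervals were formed from this SE and a t quantile, are not given by edgeR itself, and include the spread between libraries. Floors cover counting error only: 3 counts, the limit that a count of 0 allows, stand for 0.0747 to 0.144 nTPM in a gene of 2 kb.

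Genes were named by rule: the 5 plasma cell markers, the 10 most abundant immunoglobulin and 25 most abundant other genes, up to 6 leading members of each of 26 function lists, transcription factors and the 8 highest and 8 lowest members of the B and plasma cell lists, the 3 highest of other marker lists, the 8 highest and 8 lowest log2 fold changes among called genes whose average log2 CPM was 3 or more, and the 10 smallest ranges. Predicted genes, pseudogenes and features under 200 bases were counted but not named. Some members of the lists stay in the counts and are not reported here by name. Members and lists were chosen with earlier results of these data known. Alternatives changed the scaling, filter, tool, thresholds, short features and the libraries used.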

Additional observations from a re-analysis of the deposited data

Results flagged for a closer look

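A library was singled out where its gap to the nearest of the other 3 took up more of their whole range than Dixon's 95% critical value for 4 values. Of 315 sets of values examined, 14 (4.44%) met this, while chance gives about 1 in 20. By library, 0 were in WT replicate 1, 7 in replicate 2, 3 in replicate 3 and 4 in replicate 4.

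In WT replicate 2, the macrophage genes Fcna (386 nTPM), Cd5l (180.0 nTPM) and Cd163 (39.8 nTPM) and the adhesion gene Vcam1 (364 nTPM) stood above the other libraries, as did the summed stroma and endothelium markers at 0.0461% of nTPM, which Vcam1 dominates. Igha at 51538 TPM and H2-D1 at 2306 nTPM were also highest there. In WT replicate 3, total counts were 145.4 M, and Eef1a1 at 5586 nTPM and Calr at 2294 nTPM were above the rest. In WT replicate 4, Igkv5-39 at 17820.3 TPM, Cd72 at 10.4 nTPM and Fcer2a at 5.83 nTPM were highest, and the share of glycolysis genes at 0.130% was lowest.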

How the results depend on the processing

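The count of genes called between batches, 3697, was 3684 with DESeq2 size factors, 5435 with no filter on low counts, 3818 without immunoglobulin genes and 4688 with DESeq2, and ranged from 1111 to 3235 with 1 library left out; the lone library of a batch was then assumed to vary like the other batch. Of 103 called genes among 270 named and tested, 26 kept their call under every alternative run. S100a9 and S100a8, neither called in the full comparison, turned from log2 fold changes of 1.71 and 1.65 without replicate 3 to -6.35 and -6.11 without replicate 4 (edgeR adjusted p = 0.0185 and 0.0170). The immunoglobulin share was 91.1% by length-scaled counts, and 70.1% to 73.7% of counts with 1 library left out. The secretory share was 13.5% of raw counts, 12.3% without features under 200 bases and 13.01% also without mitochondrially encoded genes. The number of silent B cell genes was 1 under 0.5 nTPM, 5 under 2, 2 without short features, and 17 by TMM-scaled CPM per kilobase. The number of even genes was 786 at a ratio under 1.2, 6413 under 2, 4606 by TMM and 4468 without short features. Ranking by raw counts shared 15 of the top 25. Leaving out short features for the silent and the even genes, leaving out mitochondrially encoded genes, and the CPM per kilobase threshold for silence were chosen after seeing the data; the cause of these moves was not tested. No paired analysis was possible because the libraries of batch 1 carry replicate numbers 1 and 2 and those of batch 2 carry 3 and 4. With 2 libraries a batch, a missed threshold does not show that a gene is equal in both.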
